A study of Homo sapiens with 42 samples.

Results

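The early transcriptional response of OCI-Ly3 cells to a MALT1 inhibitor was read from 6 RNA-seq libraries out of 42 in the series: 3 from cells given compound 3 at 100 nM for 8 h, and 3 from cells given the solvent DMSO for 8 h. Compound 3 is a covalent MALT1 inhibitor, going by the title of the series. OCI-Ly3 is an established human line of the activated B cell-like form (ABC) of diffuse large B-cell lymphoma (DLBCL), and so is TMD8. Further libraries, all in groups of 3, were used to follow the rows that changed: OCI-Ly3 with compound 3 or DMSO for 24 h, TMD8 with compound 3 or DMSO for 8 h and for 24 h, and OCI-Ly3 after lentiviral infection with hairpin 1 against MALT1, with hairpin 2 against it, or with a hairpin that has no target. The same 3 hairpin groups of TMD8 entered the knockdown fit and the plot of all libraries. The labels give no other treatment, and each line is a single model of the disease. Nothing in them says that libraries of a group came from separate cultures: the p-values measure the spread among these libraries alone, and it may be technical.

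MALT1 is a protease and scaffold that works in a signalling complex downstream of the B-cell receptor. It activates NF-kappaB, in part by holding the complex together and in part by cutting proteins that restrain the pathway. ABC-DLBCL cells keep this pathway switched on and often depend on it. The 8 h libraries address which transcripts move early once the protease is inhibited.

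Each deposited file lists 23250 rows, each with a running number and a level in CPM (reads scaled by library total), without gene names. The response is therefore described row by row, the levels of MALT1, its target genes and cell type markers are not reported, and no sequence is shown. CPM is not divided by transcript length, so an order of rows by CPM is an order by reads, not by transcript abundance. The 6 libraries held 27.0 to 29.7 M reads in the rows, and 1 CPM stood for 35.5 to 38.6 reads. Across rows, each of the 6 libraries had a Spearman correlation of 0.959 to 0.980 with the mean of the other OCI-Ly3 libraries, against 0.848 to 0.879 with the mean of the TMD8 libraries, so the levels went with the line label. A row was tested where at least 3 of the 6 libraries reached 1 CPM, which held for 11746 of the 23250 rows (50.5%).

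After 8 h the change of most rows lay near 0, and the rows furthest from 0 were lower with compound 3. The median change over all 11746 rows was 0.01 on the log2(CPM + 1) scale (quartiles -0.07 and 0.10), a scale that understates changes of rows near 0. In bulk RNA, fewer cells of a type and less RNA per cell cannot be told apart. A change of -0.5 or below was reached by 50 rows and one of 0.5 or above by 21 rows. At -1 or below lay 10 rows and at 1 or above 0 rows, with no test on these counts. The plot of change against level shows this fringe below the cloud. The cloud was not even about 0, with 5th and 95th percentiles over all rows of -0.18 and 0.25.

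**Figure D1:**
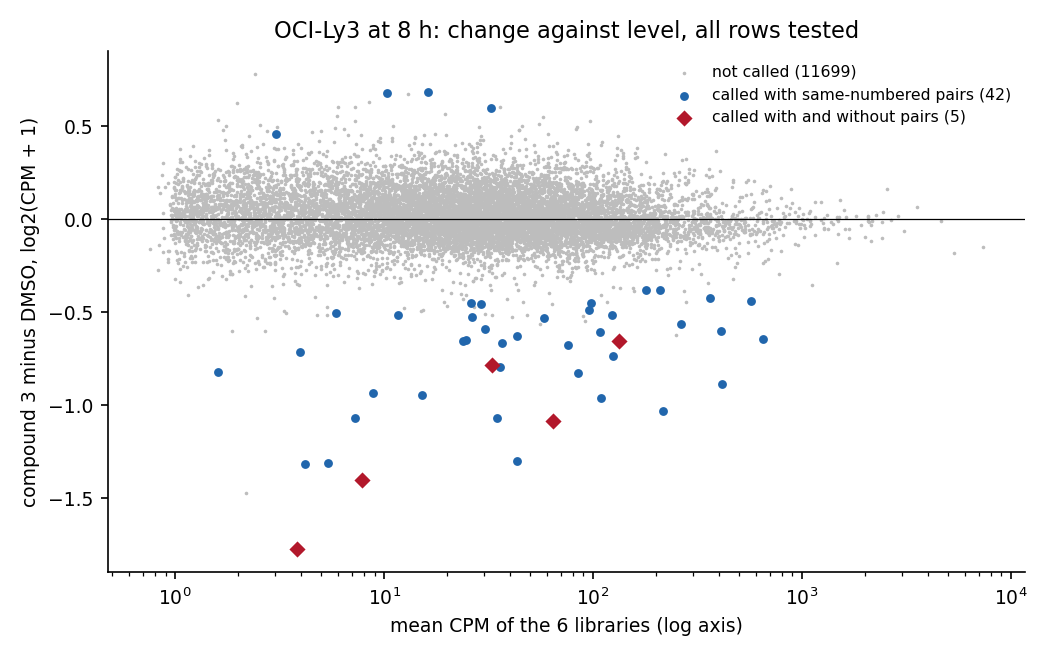
Change of each of the 11746 rows in OCI-Ly3 at 8 h (vertical axis, compound 3 minus DMSO, log2(CPM + 1)) against its mean CPM over the 6 libraries (horizontal log axis). Grey points were not called, blue points (42) were called with same-numbered libraries as pairs, and red diamonds (5) were called with and without pairs. All but 4 of the called rows lie below 0.

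How many rows were called depended on whether libraries with the same replicate number were treated as pairs. Without pairs, 5 rows fell (0.0426% of the rows tested) and 0 rose (0%) at a limma adjusted p below 0.05. At an unadjusted p below 0.05 there were 92 lower and 58 higher rows, and of the count-based tools edgeR called 1 row and DESeq2 11, all of them lower. With pairs, 47 rows were called (0.4%): 43 fell (0.366%), the 5 among them, and 4 rose (0.0341%), while 399 lower and 602 higher rows had an unadjusted p below 0.05. The numbers did pair the libraries: deviations from the group mean had a correlation across rows of 0.757, 0.719 and 0.824 in the same-numbered pairs, against -0.602 to -0.111 in the others. Replicate number accounted for 80.1% of the variance among the 6 libraries and treatment for 9.0%. The median standard error of a change was 0.102 with pairs and 0.165 without.

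Libraries of both lines share 1 estimate of the spread per row in these fits. In a check on simulated data their p-values came out too small in rows that are nearly silent in TMD8. The simulated libraries had no effect of replicate number, unlike the real ones, so the check does not settle this for the paired fit. Of the 11746 rows, 885 averaged under 1 CPM in TMD8, and they include 1 of the 5 rows and 9 of the 47. Fitted on OCI-Ly3 libraries only, the unpaired comparison in limma called 0 rows (88 lower and 35 higher had an unadjusted p below 0.05), and the paired one called 50 (0.426%), of which 45 were lower (0.383%) and 5 higher (0.0426%). Of the 43 lowered rows 38 were called there too, as were 3 of the 4 raised rows and 7 of the 9 nearly silent in TMD8. Single libraries also set the unpaired count: it was 1 without compound 3 replicate 2 and 1 without compound 3 replicate 3. Without DMSO replicate 1 it was 4, and these were no longer one-sided, with 2 lower and 2 higher rows. With no filter the unpaired fit called 7 lower rows and 1 higher row. With pairs, the lowered rows still called numbered 33 without pair 1, 26 without pair 2 and 16 without pair 3. That all 43 stayed below 0 each time was fixed in advance, because each of them was lower in every pair.

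The row with the largest fall was row 18475. It held 2.11, 0.518 and 0.753 CPM in the compound 3 libraries (replicates 1 to 3), against 10.9, 3.74 and 4.84 CPM in the DMSO libraries. Replicate 1 was the highest library on both sides, and the groups did not overlap. In recovered reads these levels are 75, 20 and 29 with compound 3, against 406, 135 and 185 with DMSO. Its mean was 1.13 ± 0.862 CPM with compound 3 and 6.51 ± 3.88 CPM with DMSO (SD, n = 3 each). The log2 change was -1.77, with a standard error of 0.27 without pairs and 0.11 with them. Its limma adjusted p was 0.0104 without pairs and 3.7e-06 with them. Without pairs the call was lost when compound 3 replicate 2 (adjusted p 0.171, limma) or compound 3 replicate 3 (0.0725) was left out, and in OCI-Ly3 libraries alone (0.238).

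Row 14333 had the smallest adjusted p of the unpaired limma fit, though not in edgeR, DESeq2 or the paired fit of OCI-Ly3 libraries, where row 18475 had a smaller one. It held 5.58, 2.98 and 3.14 CPM with compound 3, against 13.8, 9.90 and 11.4 CPM with DMSO, and again the lowest DMSO library lay above the highest compound 3 library. The means were 3.90 ± 1.46 CPM with compound 3 and 11.7 ± 1.97 CPM with DMSO (SD, n = 3 each). The log2 change was -1.40 ± 0.14 (SE), and the limma adjusted p was 4.3e-05 without pairs. This row is one of those nearly silent in TMD8, where simulated p-values were too small. In OCI-Ly3 libraries alone the limma adjusted p was 0.0591 without pairs and 0.000117 with them. Leaving out any 1 of the 6 libraries kept the call in the unpaired fit of all libraries, whereas edgeR without pairs (adjusted p 0.0767) and the 6 libraries alone without pairs (0.9998, limma) gave no call.

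The other 3 rows called both ways had higher CPM. The third of the 5 held 50.9, 26.7 and 46.8 CPM with compound 3, against 94.8, 68.7 and 97.6 CPM with DMSO. Replicate 2 was the lowest library on both sides, and the log2 change was -1.09 ± 0.20 (SE; limma adjusted p 0.0420 without pairs, 5.5e-05 with). The fourth row held 28.0, 22.8 and 20.9 CPM with compound 3, against 47.3, 42.0 and 36.2 CPM with DMSO. It fell by 0.78 ± 0.14 on the log2 scale (SE), with limma adjusted p-values of 0.0420 without pairs and 0.000151 with pairs, and its 3 pairs gave -0.73, -0.85 and -0.76. The fifth row held 118, 96.1 and 96.7 CPM with compound 3, against 177, 155 and 158 CPM with DMSO, a log2 change of -0.66 ± 0.11 (SE; limma adjusted p 0.0152 without pairs, 0.000563 with). In all 3 the groups did not overlap.

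The unpaired calls of these 3 rows depended on single libraries and on the processing. edgeR without pairs called none of the 3 (adjusted p 0.0767, 0.192 and 0.0581 for the third, the fourth and the fifth row). Median-ratio rescaling ended the third row's call (0.0504, limma) and the fourth row's (0.120), no filter the third row's (0.0586) and quantile normalization the fourth row's (0.0923). In OCI-Ly3 libraries alone, the limma adjusted p was 0.451 for the third row and 0.238 for each of the others. Leaving out 1 library ended the third row's call 4 times: adjusted p (limma) was 0.314 without DMSO replicate 1, 0.418 without DMSO replicate 3, 0.375 without compound 3 replicate 2 and 0.0725 without compound 3 replicate 3. The fourth row's call was also lost 4 times, at 0.353 without DMSO replicate 1, 0.113 without DMSO replicate 2, 0.375 without compound 3 replicate 2 and 0.308 without compound 3 replicate 3. The fifth row's was lost at 0.130 without DMSO replicate 1, 0.203 without compound 3 replicate 2 and 0.0923 without compound 3 replicate 3. With pairs, each of the 5 rows kept its call when fitted on OCI-Ly3 libraries only.

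**Figure D2:**
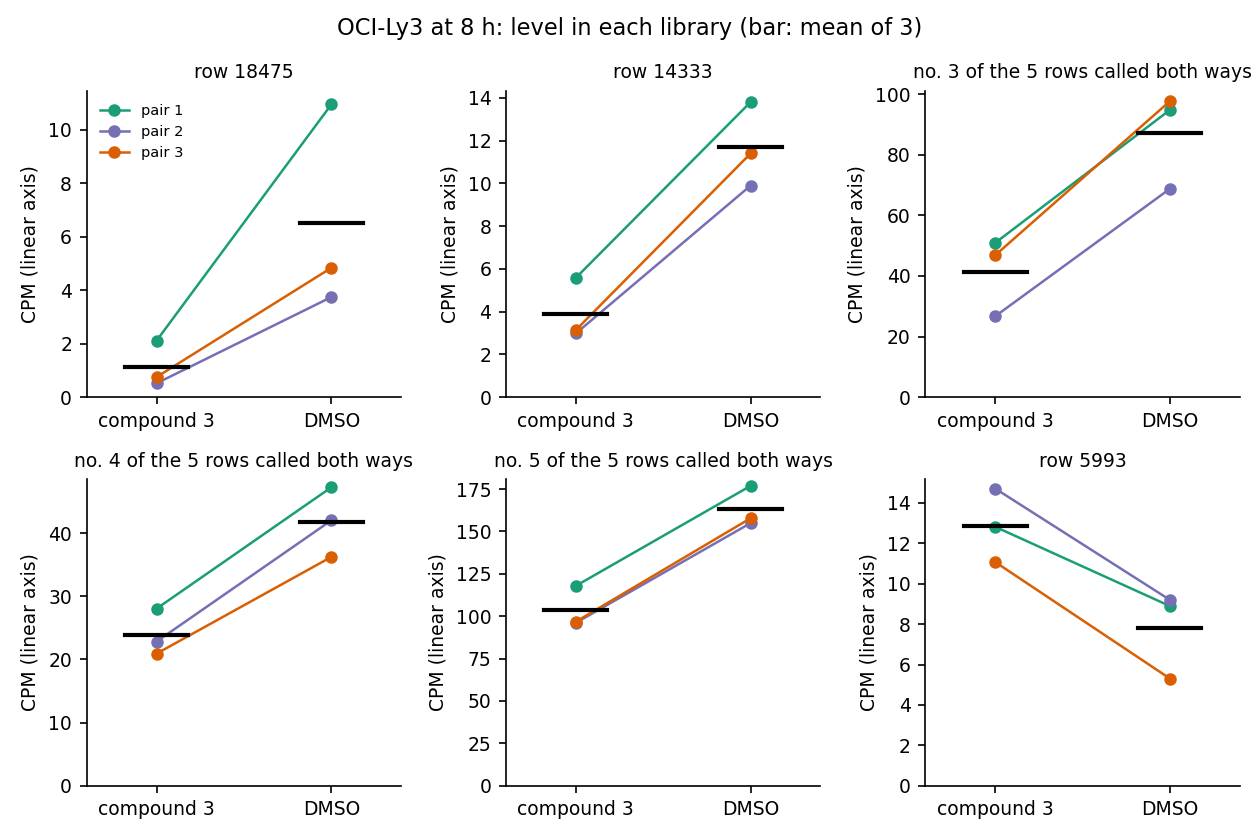
CPM (linear axis, from 0) in each of the 6 libraries for the 5 rows called with and without pairs and for row 5993, the raised row. Points of one colour joined by a line are libraries with the same replicate number, and the black bar is the mean of 3. In the 5 lowered rows every compound 3 point lies below every DMSO point, and in row 5993 every one lies above.

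The 43 rows that fell with pairs spanned a wide range of levels. Their mean CPM was 0.848 to 504 with compound 3 (median 27.9) and 2.35 to 793 with DMSO (median 52.5). The log2 changes lay between -1.77 and -0.38 with a median of -0.66, against 0.01 over all rows. On the CPM + 1 scale the median row was 36.5% lower with compound 3, and 9 of the 43 were lower at least 2-fold. Each of the 43 was lower in all 3 pairs, which the paired fit favours when it chooses rows. In 29 of them every compound 3 library lay below every DMSO library, which held for 1.25% of all rows tested, and in 14 the groups overlapped. The same libraries chose the rows, which favours groups that do not overlap, so this comparison is no separate support.

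By level, 9 of the 43 averaged under 10 CPM over the 6 libraries, 20 averaged 10 to 100 CPM and 14 at least 100 CPM. The share of tested rows that fell was 0.269%, 0.299% and 0.817% in these 3 classes. The standard error also shrank with level, with medians of 0.114, 0.0990 and 0.0837 over all rows tested, and the part of this in the shares was not tested.

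Extremes of the rows called only with pairs show the range. The row with the most reads held 465, 418 and 630 CPM with compound 3, against 705, 647 and 1027 CPM with DMSO. Replicate 3 was the highest on both sides and its compound 3 level of 630 CPM lay just under the DMSO level of replicate 2, while the pairs gave -0.60, -0.63 and -0.70. Its log2 change was -0.64 ± 0.07 with pairs (SE; limma adjusted p 0.000828). The row with the lowest CPM held 0.676, 0.492 and 1.38 CPM with compound 3, against 1.73, 1.5 and 3.82 CPM with DMSO, a log2 change of -0.82 ± 0.12 with pairs (SE; limma adjusted p 0.00441).

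The largest fall among the rows called only with pairs was in a row with 2.0, 1.04 and 2.80 CPM with compound 3, against 6.23, 3.80 and 9.36 CPM with DMSO. The groups did not overlap, the log2 change was -1.32, and this row stood just outside the unpaired threshold, with a limma adjusted p of 0.0577 without pairs and 0.000831 with them. The last row inside that threshold had 0.0420. The smallest fall was in a row with 133, 137 and 192 CPM with compound 3, against 176, 164 and 268 CPM with DMSO. Here the groups overlapped, and the log2 change was -0.38 ± 0.06 with pairs (SE; limma adjusted p 0.00769). At the paired threshold the last row called had an adjusted p of 0.0486 and the next row 0.0531 (limma).

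Other paired fits gave a similar lowered side. edgeR's quasi-likelihood test with pairs, on the recovered reads, called 40 lower and 4 higher rows, 38 of the 43 lowered rows among them. Fitted on the 6 libraries alone, limma with pairs called 60 lower and 17 higher rows, with 39 of the 43. Of the 43, 34 were called in all 4 paired fits (all libraries, OCI-Ly3 only, the 6 alone and edgeR). All 4 take the 8 h change from the same 6 libraries and pairs, so their overlap is no separate support.

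Counted pair by pair, with no model and no test, large changes were mostly falls, while the balance of changes of any size depended on the scaling. Over the 11746 rows, 1449 were lower with compound 3 in all 3 pairs (12.3%) and 2268 were higher in all 3 (19.3%). This split moved with the scaling: rescaling the libraries by the median ratio gave 1909 lower and 1946 higher. A change of at least 0.5 in each pair was found in 27 lower rows (0.23%) and 1 higher row (0.00851%), and median-ratio rescaling left both counts as they were. Of the 27, 92.6% were among the paired calls. Groups that did not overlap were about as common in both directions, in 147 lower rows (1.25%) and 154 higher rows (1.31%), and median-ratio rescaling gave 188 and 114.

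The size of the fall differed somewhat between pairs. Over the 43 lowered rows the median change was -0.59 in pair 1, -0.67 in pair 2 and -0.76 in pair 3, and pair 1 showed the smallest change of the 3 in 28 rows. Over all tested rows the pairs leaned differently, with 51.0%, 50.6% and 37.6% of rows below 0 in pairs 1, 2 and 3: pair 3 had the largest median fall among the 43 and the fewest rows below 0 over the table. Levels also followed the replicate number. Compound 3 replicate 2 was the lowest of its group in 33 of the 43 rows and DMSO replicate 2 in 36, in 33 rows both at once, against 35.7% and 37.2% of all rows tested.

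**Figure D3:**
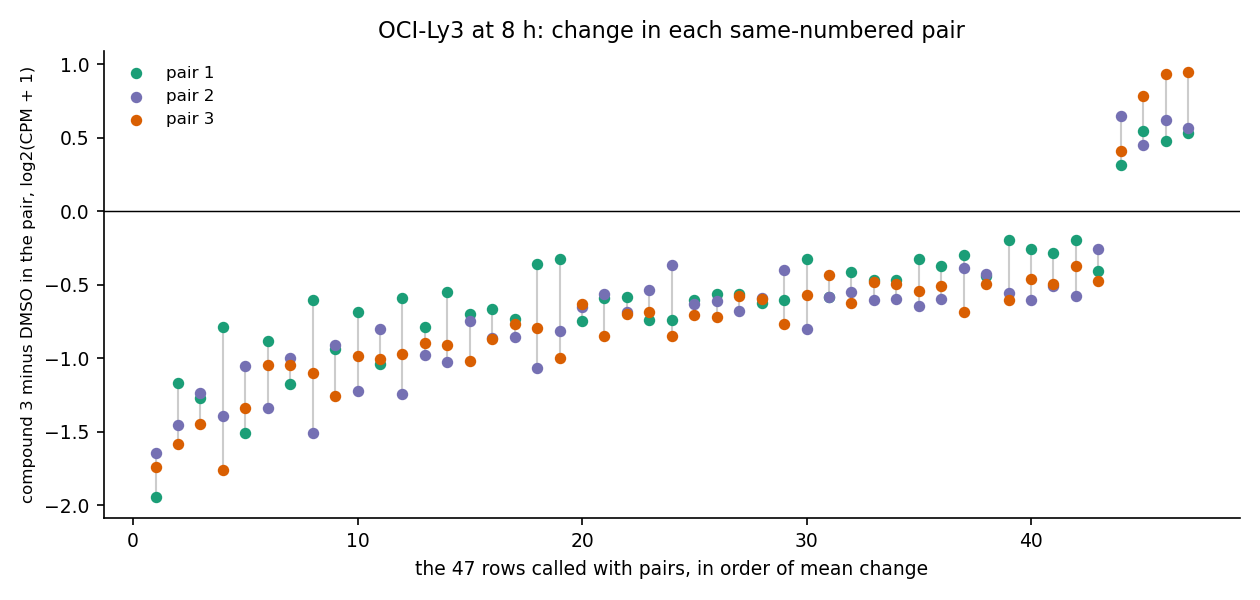
Change in each same-numbered pair (vertical axis, compound 3 minus DMSO, log2(CPM + 1)) for the 47 rows called with pairs, ordered by mean change; colours mark the pair and grey lines join the 3 pairs of a row. The 43 lowered rows are below 0 and the 4 raised rows above 0 in every pair, as the choice by the paired fit favours.

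On the raised side 4 rows were called with pairs and 0 without. Their mean CPM was 3.66 to 39.1 with compound 3 and 2.40 to 26.1 with DMSO, and the log2 changes were 0.46 to 0.68. In 3 of the 4 the groups overlapped. The exception was row 5993, with 12.8, 14.7 and 11.1 CPM with compound 3, against 8.90, 9.20 and 5.31 CPM with DMSO. Replicate 3 was the lowest on both sides. The means were 12.9 ± 1.82 CPM with compound 3 and 7.80 ± 2.17 CPM with DMSO (SD, n = 3 each), the pairs were 0.48, 0.62 and 0.94, and the log2 change was 0.68. The limma adjusted p was 0.9998 without pairs, 0.00769 with pairs and 0.0245 with pairs in OCI-Ly3 libraries only. With pairs the call did not survive the loss of pair 2 (adjusted p 0.0628, limma) or pair 3 (0.182). Row 5993 averaged 2.66 CPM in TMD8. The other raised rows averaged 0.0049, 0.0855 and 0.137 CPM there, so they are among those nearly silent in TMD8, where simulated p-values were too small. The one at 0.0049 CPM lost its call with pairs in OCI-Ly3 libraries only (limma adjusted p 0.133).

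Most lowered rows were also lower after 24 h. The 24 h levels did not enter the 8 h change, but the 24 h libraries did enter the estimate of the spread behind the calls. At 24 h, 33 of the 43 (76.7%) were below 0, against 50.1% of all rows tested, and their median change was -0.32, against -0.00034 over all rows. With pairs, 9.65% of all rows were called at 24 h: 22 of the 43 fell, against a background of 4.04% of all rows, and 5 rose, against 5.61%. In OCI-Ly3 libraries only, 8.81% of all rows were called, 21 of the 43 fell (background 3.41%) and 4 rose (background 5.4%). The 22 rows are 51.2% of the rows lowered at 8 h and 4.64% of the 474 rows lowered at 24 h. Without pairs 0.8% of all rows were called, 5 of the 43 fell at 24 h (background 0.119%) and 0 rose (background 0.681%).

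All 5 rows called both ways at 8 h fell at 24 h with pairs. Row 14333 held 1.64, 1.76 and 1.88 CPM with compound 3 at 24 h, against 6.67, 7.73 and 6.54 CPM with DMSO, a log2 change of -1.53 ± 0.14 (SE; limma adjusted p 9.5e-06 without pairs and 8.8e-06 with pairs in OCI-Ly3 libraries only). The change at 24 h minus that at 8 h was -0.13 (limma adjusted p 0.701 with pairs). Row 18475 held 0.424, 0.563 and 0.417 CPM with compound 3 at 24 h, against 1.29, 1.39 and 0.922 CPM with DMSO. Its DMSO level was far lower at 24 h than at 8 h (1.2 ± 0.246 against 6.51 ± 3.88 CPM, SD, n = 3 each), and the change was -0.58 ± 0.27 (SE; limma adjusted p 0.577 without pairs, 0.00625 with). At levels this low the log2(CPM + 1) scale understates a change, so the sizes at 8 h and 24 h are not alike in this row. The third, the fourth and the fifth row changed by -0.79, -0.71 and -0.47. The fifth row's unpaired 24 h call (limma adjusted p 0.0345) was lost under median-ratio rescaling (0.0503) and under quantile normalization (0.0915).

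Where the 24 h change itself was set against the 8 h change, 38 of the 43 lowered rows had the weaker fall, or a rise, at 24 h. This difference contains the 8 h values that chose the rows, which pushes it above 0. In limma without pairs 0 rows of the whole table differed between the times (DESeq2 called 21 and edgeR 0, and 310 had an unadjusted limma p below 0.05), whereas with pairs 1.47% of all rows did. Of these, 144 rows had the higher change at 24 h (1.23%), 14 of the 43 among them, and 29 rows the lower change (0.247%), 0 of the 43. Row 18475 is among the 14, and its low 24 h levels limit the fall that this scale can show. In OCI-Ly3 libraries only, 1.02% of all rows were called with pairs, and 13 of the 43 had the higher change (background 0.902%).

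A pair of rows, picked here after their values were seen, had turned by 24 h. One held 81.5, 38.1 and 66.6 CPM with compound 3 at 8 h, against 119, 78.7 and 126 CPM with DMSO. At 24 h it held 72.2, 86.0 and 85.1 CPM with compound 3, against 45.4, 54.6 and 49.3 CPM with DMSO. The groups overlapped at 8 h and did not at 24 h, and with pairs its log2 changes were -0.83 at 8 h and 0.69 at 24 h (limma adjusted p 0.00193 and 0.0011). The other held 537, 383 and 537 CPM with compound 3 at 8 h, against 643, 582 and 740.5 CPM with DMSO, and at 24 h 666, 757 and 925 CPM, against 379.7, 526 and 512 CPM with DMSO. The groups did not overlap at either time. Its log2 changes were -0.44 and 0.73 (limma adjusted p with pairs 0.0256 and 8.3e-05), although the 8 h call was lost in OCI-Ly3 libraries only (0.0566). In both rows the DMSO level was lower at 24 h than at 8 h.

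Of the 4 raised rows, 2 also rose at 24 h with pairs, against 5.61% of all rows. Row 5993 held 16.9, 19.3 and 14.9 CPM with compound 3 at 24 h, against 9.12, 8.47 and 8.73 CPM with DMSO. The groups did not overlap, and the log2 change was 0.88 ± 0.25 (SE; limma adjusted p 0.151 without pairs and 0.000173 with).

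In TMD8 the changes of the same rows were smaller at the median. The OCI-Ly3 changes chose these rows, which favours larger changes there, so the smaller median does not by itself show a weaker response. Of the 47 called rows, lowered and raised together, 9 are nearly silent in TMD8, and little change could be seen in those 9. The part of such rows in the median of the lowered rows was not tested. At 8 h, 35 of the 43 lowered rows (81.4%) were below 0 in TMD8, against 52.8% of all rows, and the changes ranged from -0.85 to 0.12 with a median of -0.16, against -0.01 over all rows. Without the TMD8 8 h libraries numbered 1, which stand apart from the others of their groups, 34 of the 43 were below 0. In limma without pairs 0 rows of the whole table were called in TMD8 at 8 h (0%; 102 lower and 6 higher rows had an unadjusted p below 0.05, 5 of the 43 among the lower). edgeR and DESeq2 also called 0 rows there. With pairs 2 rows fell (0.017%), both of them among the 43.

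One of these 2 was row 18475, which is higher in TMD8 than in OCI-Ly3. It held 10.1, 12.3 and 11.6 CPM with compound 3 in TMD8 at 8 h, against 17.4, 26.1 and 18.7 CPM with DMSO. The groups did not overlap, and the log2 change was -0.80 ± 0.27 (SE; limma adjusted p 1.0 without pairs and 0.0438 with). By 24 h the TMD8 levels lay close together, at 31.1 ± 0.676 CPM with compound 3 and 29.98 ± 6.02 CPM with DMSO (SD, n = 3 each). The other row held 77.6, 42.1 and 65.6 CPM with compound 3 in TMD8 at 8 h, against 137, 89.0 and 104 CPM with DMSO, a change of -0.85, beside -0.95 in OCI-Ly3 (limma adjusted p with pairs 0.0438 and 0.00137).

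The difference between the lines was called in few rows. All 43 lowered rows had a more negative change in OCI-Ly3 than in TMD8, a difference that again contains the values that chose them. Without pairs limma called 1 row of the whole table (0.00851%), row 14333, with a difference of -1.38 ± 0.20 (SE, OCI-Ly3 minus TMD8; adjusted p 0.0140). That row gave 2 reads in 1 of the TMD8 8 h libraries and 0 in the other 5, so no fall could have been seen in TMD8. The difference restates the OCI-Ly3 change and does not show that the lines respond differently. Leaving out any of 8 of the 12 libraries ended this call, namely OCI-Ly3 DMSO replicate 1, OCI-Ly3 compound 3 replicates 2 and 3, TMD8 DMSO replicates 1 and 3 and all TMD8 compound 3 replicates, each of which left 0 rows.

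With pairs, limma called row 14333 and 1 more row (0.017%). The second held 91.3, 45.1 and 89.2 CPM with compound 3 in OCI-Ly3 at 8 h, against 147, 106 and 177 CPM with DMSO, and 187, 135 and 142 CPM with compound 3 in TMD8, against 191, 139.5 and 134 CPM with DMSO. The OCI-Ly3 groups did not overlap and the TMD8 groups did. Its changes were -0.96 in OCI-Ly3 and 0.0019 in TMD8, a difference of -0.96 (limma adjusted p 0.0346 with pairs, 0.9995 without).

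**Figure D4:**
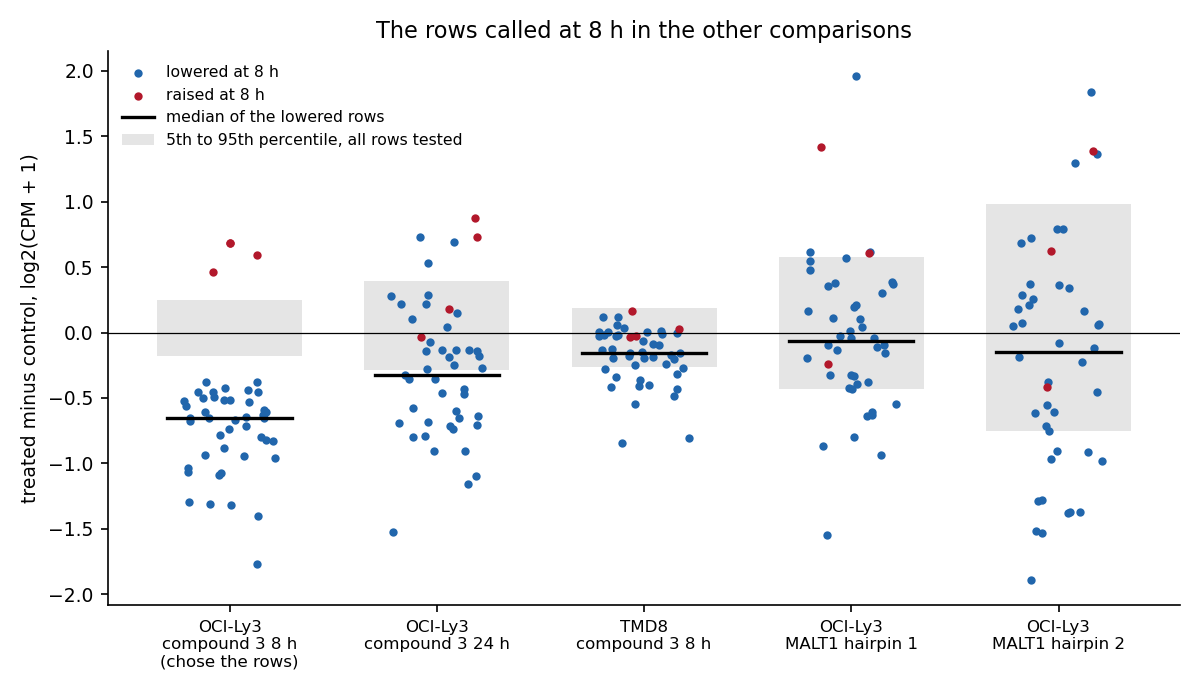
Change (vertical axis, treated minus control, log2(CPM + 1)) of the 43 lowered (blue) and 4 raised (red) rows in the comparison that chose them, at 24 h, in TMD8 and with each MALT1 hairpin in OCI-Ly3. Black lines are medians of the lowered rows and grey boxes span the 5th to 95th percentile of all rows tested; the median lies at -0.66 in the first column, -0.32 at 24 h and -0.16 in TMD8, and the hairpin columns spread on both sides of 0.

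With the MALT1 hairpins the lowered rows went both ways. The knockdown test included 42 of the 43 rows, and how far the hairpins lowered MALT1 could not be checked in unnamed rows. With hairpin 1, where limma called 15.1% of all rows against the non-targeting hairpin, 24 were below 0 (57.1%, against 47.6% of the 11380 rows also tested at 8 h), 9 fell (background 7.75% of all rows) and 4 rose (7.32%). With hairpin 2, where 52.9% of all rows were called, 23 were below 0 (54.8%, against 49.96%), 18 fell (26.1%) and 7 rose (26.7%). Shares of rows called are over the 12303 rows of the knockdown test. Among the 11380 also tested at 8 h, 938 fell and 843 rose with hairpin 1, and 3168 fell and 3035 rose with hairpin 2. The median changes of the lowered rows were -0.07 with hairpin 1 and -0.15 with hairpin 2, and without non-targeting replicate 1 they were 0.02, with 21 of 42 below 0, and -0.18. Both hairpins were set against the same 3 control libraries. One of those controls, non-targeting replicate 1, stands apart from the other 2. Without it hairpin 1 called 15.8% of all rows, with 10 of the lowered rows lower (background 8.43%) and 9 higher (7.36%), and hairpin 2 called 57.2%, with 19 lower (29.8%) and 12 higher (27.4%).

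Among the 5 rows called both ways at 8 h, the fourth row had 16.8, 18.3 and 16.4 CPM with hairpin 1 and 12.7, 12.4 and 13.6 CPM with hairpin 2, against 20.1, 22.9 and 22.8 CPM with the non-targeting hairpin. Neither hairpin group overlapped the control, and the changes were -0.34 ± 0.08 and -0.72 ± 0.08 (SE; limma adjusted p 0.0125 and 3.1e-06). The fifth row rose with both, by 0.21 and 0.26 (limma adjusted p 0.0139 and 0.000547), the opposite direction to compound 3. The third row fell with hairpin 2 (-0.61, limma adjusted p 0.00391; -0.33 without non-targeting replicate 1) and had -0.13 with hairpin 1 (0.573), which turned to 0.15 without non-targeting replicate 1.

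Row 14333 had 7.20, 7.21 and 8.34 CPM with hairpin 1 and 11.4, 12.4 and 9.33 CPM with hairpin 2, against 10.9, 6.88 and 7.45 CPM with the non-targeting hairpin. Both groups overlapped the control, and the changes were -0.11 with hairpin 1 (limma adjusted p 0.581) and 0.37 with hairpin 2 (0.0261). Under quantile normalization the hairpin 2 change was not called (0.170, limma). Hairpin 2 overlapped only the control at 10.9 CPM, which is non-targeting replicate 1. With this library left out, hairpin 1 gave 0.07 (0.728, limma) and hairpin 2 gave 0.55 (0.000265). Row 18475 was nearly silent in the knockdown libraries of OCI-Ly3, with 12 reads over the hairpin 1 libraries and 23 over the hairpin 2 libraries, against 39 over the controls, and was called with neither (with a pseudocount of 0.25 hairpin 1 gave -0.81, limma adjusted p 0.0475). Row 5993 had changes of 0.61 with hairpin 1 and 0.63 with hairpin 2 (limma adjusted p 0.102 and 0.0416), and without non-targeting replicate 1 they were 0.27 (0.396) and 0.29 (0.209).

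**Figure D5:**
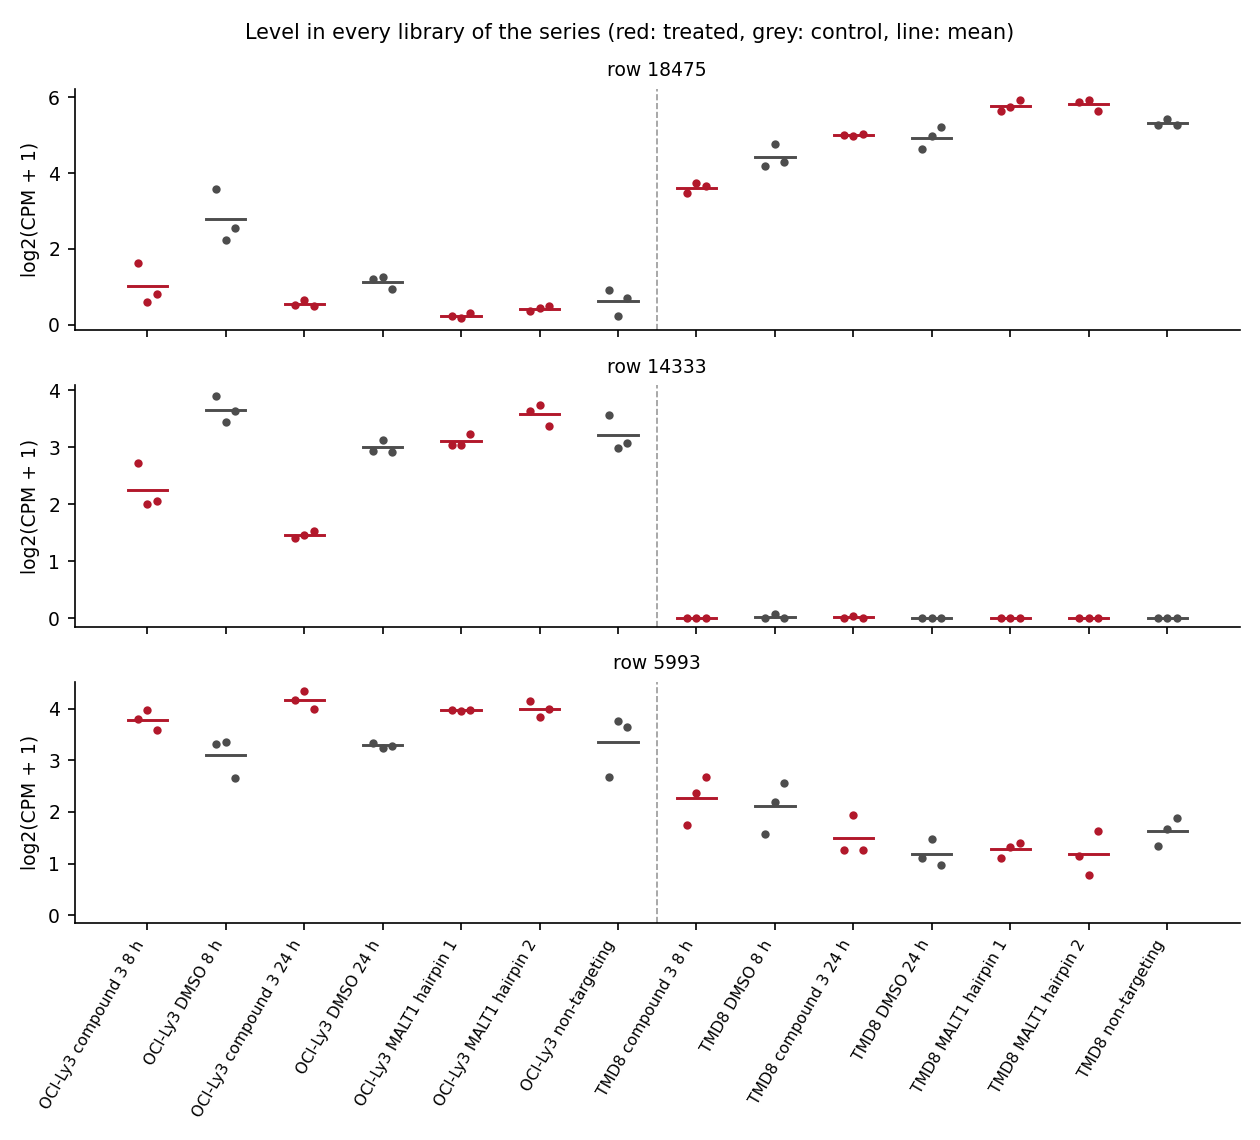
Level of rows 18475, 14333 and 5993 (vertical axis, log2(CPM + 1)) in all 42 libraries, red for treated and grey for control, with a line at each group mean; OCI-Ly3 groups are left of the dashed line and TMD8 groups right of it. Row 18475 is higher in TMD8 than in OCI-Ly3, row 14333 is at or near 0 in TMD8, and row 5993 is lower in TMD8 than in OCI-Ly3.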

How the data were processed

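RNA-seq libraries were prepared with a stranded mRNA kit, per the labels' protocols, and aligned with STAR (version not given) to hg19, per the submitters' processing notes. Which counter was used, and with what strand setting, is not stated in the labels or files. Values deposited by the authors are CPM, and 100% of them were whole multiples of 1 read (within 1e-06), which recovered the reads for edgeR 4.0.16 and DESeq2 1.42.0. No file repeated another in its group: chi-square per degree of freedom within the 8 h groups was 60.5 to 75.3.

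The main test was limma 3.58.1 under R 4.3.3, run on log2(CPM + 1) of the authors' deposited values, fitting a mean per group over all 24 compound libraries, with a mean-variance trend and two-sided Benjamini-Hochberg adjustment over the 11746 rows; 18 knockdown libraries (12303 rows) had their own fit. The paired fit adds a term for each same-numbered pair of a line and time. It pairs TMD8 24 h too, where same-numbered correlations were -0.208, -0.175 and 0.792. Tested on simulated data without an effect of replicate number, fits sharing the spread of both lines gave p-values that were too small in rows nearly silent in TMD8. Alternatives combining pairs with other libraries, scalings or pseudocounts were chosen after seeing the data. Row numbers printed are the 2 lowered rows with the largest fall, called without pairs, lower in each pair and not overlapping, and the raised row that met this with pairs. Rows and rules were chosen with earlier results of these data known.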

Additional observations from a re-analysis of the deposited data

Results flagged for a closer look

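The 8 h change of row 14333 differed between the lines by -1.38 on the log2(CPM + 1) scale (OCI-Ly3 minus TMD8), which a limma test of the difference called. The row was at or near 0 in TMD8 and could not fall there, so this restates the OCI-Ly3 change and shows no difference in response. In the pair of rows that had turned by 24 h, every OCI-Ly3 pair was below 0 at 8 h and above 0 at 24 h, with median pair changes at 24 h of 0.66 and 0.81; with pairs, limma's test of the time difference gave adjusted p-values of 0.000194 and 0.00018, and without pairs 0.345 and 0.9997. The second of these rows was also above 0 in every TMD8 pair at 8 h, with a median of 0.022, and that difference between lines had an adjusted p of 0.384 with pairs (limma).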

How the results depend on the processing

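The 5 rows called at 8 h became 47 with the replicate block (same-numbered pairs), 8 with no filter, 3 with median-ratio rescaling, 1 with edgeR, 11 with DESeq2, 0 in OCI-Ly3 libraries only, 9 without the TMD8 8 h libraries numbered 1, and 0 in the 6 libraries only. The replicate block gave 77 in the 6 libraries, 44 with edgeR, 63 without TMD8 24 h, 52 with median-ratio rescaling, 64 with quantile normalization, 40 with a pseudocount of 0.25 and 50 in OCI-Ly3 libraries only. Leaving out 1 library gave 1 to 7, and 1 pair under the block 16 to 39 (29 without pair 2).

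The 1 row differing between lines became 2 with the replicate block, 2 with no filter, and 0 with a pseudocount of 0.25, edgeR, DESeq2 or without the TMD8 8 h libraries numbered 1; block variants gave 5 (without TMD8 24 h), 3 (median-ratio), 7 (quantile) and 3 (pseudocount 0.25), and leaving out 1 library 0 to 1. OCI-Ly3 libraries alone cannot give it. The 0 rows differing between times became 173 with the replicate block, 3 with no filter and 21 with DESeq2; block variants gave 216, 190, 219, 131 and, in OCI-Ly3 only, 120, and leaving out 1 library 0 to 1 (without compound 3 24 h replicate 1).

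Leaving out 1 pair, which can only add rows, gave 2137 to 3096 rows lower and 2902 to 4433 higher in each pair, 32 to 43 lower and 7 to 12 higher by 0.5, and 621 to 928 lower and 796 to 1861 higher without overlap. No filter gave 327 and 320 without overlap; higher by 0.5 were 3 rows with a pseudocount of 0.25 and 2 with quantile normalization. Without non-targeting replicate 1, hairpin 1 changes of row 14333 (0.0701) and the third row (0.15) reversed. The cause of the other shifts was not tested. Of single-row values under alternatives, called or not, 222 kept their direction and side of the threshold, 37 were no longer called, 14 were newly called and 2 reversed. Counts of the 43 rows below 0 elsewhere stayed within 1.5 times under all alternatives run. At 35.5 to 38.6 reads per CPM, the rows nearest 1 CPM rest on the fewest reads.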
